A study of Homo sapiens with 8 samples.

Results

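ATF4 and 4 genes known as its targets in amino acid stress (ASNS, PSAT1, DDIT4 and SESN2) were followed in clones of PC-3, a p53-null line grown from a bone metastasis of a human prostate carcinoma. These 5 genes, of 14884 measured, were taken by symbol, and where a gene has several probe sets the brightest by mean over the 8 arrays would stand for it, though each of the 5 had only 1. They were chosen by their expression differences between RWDD4 and control clones, so those differences are described below and not tested. The RWDD4 group held 4 clonal isolates (clones 17, 24, 5 and 6) that carried a p-Lenti vector with RWDD4, which encodes an RWD domain protein. The control group held 4 clonal isolates (clones 2, 3, 4 and 5) that carried the empty p-Lenti vector, and the cells of both groups had been selected with blasticidin (spelled blastocydin in the labels). Each clone was read on 1 Affymetrix array. Values are log2 expression values, which compare a gene between arrays and not 1 gene with another, and differences are RWDD4 minus control clones.

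ATF4 is a bZIP transcription factor at the end of the integrated stress response. When amino acids run short, the kinase GCN2 senses uncharged tRNA and phosphorylates the initiation factor eIF2. General translation then falls while ATF4 mRNA is translated more, so ATF4 protein can change without a change of its mRNA, and only RNA was measured here. ATF4 binds with C/EBP partners to composite elements that hold the core TGATGNAA and raises genes for amino acid synthesis, uptake and tRNA charging, and inhibitors of the growth kinase complex mTORC1. The RWD domain is also found in GCN2 and in IMPACT, an inhibitor of GCN2.

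The promoter windows of the 4 targets are shown because they differ in the elements they hold. Each window runs from 250 bases before to 50 bases from a start of the gene in RefSeq (GRCh38.p14), 5′ to 3′ on the strand of the gene, and all 5 genes were matched. For ASNS the starts used lie inside the locus given for it below and not at the end of that locus. Distances for ASNS are counted from the start of its printed window. Capitals mark 4 motifs searched on both strands: TGATGNAA, the core of the ATF4 and C/EBP element, GTTACA, which is its partner element in ASNS, CCAAT, the box bound by NF-Y, and the hypoxia response element core ACGTG. On the other strand each appears as its reverse complement.
ASNS (chr7:97872359-97872658, minus strand): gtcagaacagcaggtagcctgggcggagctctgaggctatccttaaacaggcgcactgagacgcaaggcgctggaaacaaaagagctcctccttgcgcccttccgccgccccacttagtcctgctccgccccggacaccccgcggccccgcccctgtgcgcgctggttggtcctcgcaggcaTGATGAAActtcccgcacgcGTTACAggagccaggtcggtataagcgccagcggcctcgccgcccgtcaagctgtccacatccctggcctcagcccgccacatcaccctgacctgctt
PSAT1 (chr9:78296875-78297174, plus strand): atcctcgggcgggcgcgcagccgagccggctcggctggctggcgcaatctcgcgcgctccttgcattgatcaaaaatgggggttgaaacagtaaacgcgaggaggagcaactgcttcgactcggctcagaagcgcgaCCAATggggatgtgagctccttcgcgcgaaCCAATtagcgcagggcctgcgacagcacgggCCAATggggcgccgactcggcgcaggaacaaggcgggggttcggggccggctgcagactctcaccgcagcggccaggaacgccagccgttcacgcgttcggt
DDIT4 (chr10:72273674-72273973, plus strand): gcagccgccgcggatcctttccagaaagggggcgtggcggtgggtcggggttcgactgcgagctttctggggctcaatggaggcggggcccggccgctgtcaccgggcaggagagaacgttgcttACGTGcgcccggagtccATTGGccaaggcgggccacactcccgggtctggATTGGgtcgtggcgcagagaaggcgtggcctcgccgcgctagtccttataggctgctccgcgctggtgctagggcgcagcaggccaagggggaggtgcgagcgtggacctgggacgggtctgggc
SESN2 (chr1:28259268-28259567, plus strand): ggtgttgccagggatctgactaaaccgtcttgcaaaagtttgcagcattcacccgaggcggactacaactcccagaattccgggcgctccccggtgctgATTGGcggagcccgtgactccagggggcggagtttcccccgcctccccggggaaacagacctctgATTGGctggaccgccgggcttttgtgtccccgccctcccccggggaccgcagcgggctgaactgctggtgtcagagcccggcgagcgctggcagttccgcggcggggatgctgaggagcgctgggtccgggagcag
Only ASNS among these 4 held TGATGNAA in its window, as TGATGAAA beginning 68 bases before the start, and GTTACA followed 48 bases before it. Of all 35116 promoter windows, 3.62% held TGATGNAA and 6.66% held GTTACA. PSAT1 held CCAAT 3 times, 113, 83 and 52 bases before the start. DDIT4 held its reverse complement 108 and 75 bases before the start and ACGTG 125 bases before it, and SESN2 held the reverse complement 151 and 86 bases before its start. CCAAT occurred in 34.6% of all windows and ACGTG in 21.4%. A second ASNS start had a window with none of the 4 motifs, and both windows of ATF4 held ACGTG on both strands in the palindrome CACGTG. A match is a run of letters and not a measured binding site, and elements outside a window were not searched.

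RWDD4 itself was at 10.42, 10.45, 10.46 and 9.87 in RWDD4 clones 17, 24, 5 and 6, against 6.64, 7.58, 7.21 and 8.0 in control clones 2, 3, 4 and 5. The groups did not overlap, and the difference was 2.94 (SE 0.25) (adjusted p 5.98e-05, limma). The two-sided exact permutation test gave p = 0.0286, the smallest that 4 against 4 clones allow. Over all genes 46.7% passed the test at an adjusted p under 0.05, 25.1% higher and 21.6% lower in the RWDD4 clones, so a call is common on these arrays. Array medians over all probe sets lay between 4.89 and 4.96. Over the genes tested, they lay between 6.09 and 6.13 in RWDD4 clones and between 5.89 and 6.03 in control clones, without overlap. The part of this offset in the calls was not tested beyond the other scalings described below. The epithelial keratins KRT18 and KRT19 averaged 10.61 ± 0.17 and 10.24 ± 0.18 in RWDD4 clones, against 11.01 ± 0.14 and 10.78 ± 0.20 in control clones (SD, n = 4 each). The stromal marker DCN averaged 2.70 ± 0.07 in RWDD4 clones and 2.81 ± 0.12 in control clones. The endothelial markers of the same list were brighter. PECAM1 averaged 5.44 ± 0.16 in RWDD4 clones and 5.57 ± 0.13 in control clones, and VWF 4.53 ± 0.05 and 4.84 ± 0.19. The monocyte marker CD14 averaged 4.09 ± 0.12 in RWDD4 clones and 4.51 ± 0.22 in control clones. The part of these markers in the results was not tested. EPCAM, of the same epithelial list, averaged 6.53 ± 0.36 in RWDD4 clones and 6.40 ± 0.06 in control clones, and KRT8 averaged 6.50 ± 0.12 in RWDD4 clones and 6.78 ± 0.08 in control clones. The mesenchymal filament gene VIM averaged 8.71 ± 0.13 in RWDD4 clones and 7.98 ± 0.15 in control clones. The prostate marker KLK3, usually low in PC-3, averaged 5.76 ± 0.16 in RWDD4 clones and 5.81 ± 0.25 in control clones. In bulk RNA fewer cells of a type and less RNA per cell cannot be told apart, and nothing says whether the clones were grown or extracted at separate times.

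ATF4 (chr22:39520559-39522686 in GRCh38.p14, as are the positions that follow) differed little in mRNA between the groups. ATF4 was at 9.25, 8.99, 9.30 and 9.26 in RWDD4 clones 17, 24, 5 and 6, against 9.12, 9.29, 9.24 and 9.33 in control clones 2, 3, 4 and 5. The groups overlapped, with the lowest value of all 8 in RWDD4 clone 24 and the highest in control clone 5. The means were 9.20 ± 0.14 in RWDD4 clones and 9.24 ± 0.09 in control clones (SD, n = 4 each), a difference of -0.04 (SE 0.10) that was smaller than its error. Its direction was not fixed, since it was -0.24 (SE 0.09) after quantile normalization and 0.24 (SE 0.11) with the trend over genomic span removed. Of all genes, 7.43% had a smaller absolute difference.

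ASNS and PSAT1, the 2 amino acid synthesis enzymes among the 5 genes, were higher in the RWDD4 clones. ASNS (chr7:97851677-97928441), which makes asparagine from aspartate and glutamine, was at 7.38, 7.18, 7.83 and 7.69 in RWDD4 clones 17, 24, 5 and 6, against 6.82, 6.88, 6.90 and 6.87 in control clones 2, 3, 4 and 5. Every RWDD4 clone lay above every control clone, with a gap of 0.28 between the groups. The RWDD4 clones spread over 0.66 and the control clones over 0.08. ASNS averaged 7.52 ± 0.30 in RWDD4 clones and 6.87 ± 0.03 in control clones (SD, n = 4 each), 0.65 (SE 0.14) or 1.57-fold higher. PSAT1 (chr9:78297125-78330093), the transaminase of the second step of serine synthesis, was at 10.33, 9.99, 10.81 and 10.57 in RWDD4 clones 17, 24, 5 and 6, against 8.95, 9.45, 9.79 and 9.70 in control clones 2, 3, 4 and 5. Its groups did not overlap either, and the lowest RWDD4 clone, 24, lay 0.20 above the highest control clone, 4. PSAT1 averaged 10.43 ± 0.35 in RWDD4 clones and 9.47 ± 0.38 in control clones, 0.95 (SE 0.21) or 1.94-fold higher. The spread of PSAT1 was alike in both groups, over 0.82 in RWDD4 clones and 0.84 in control clones.

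DDIT4 and SESN2, the 2 inhibitors of mTORC1 among the 5 genes, were lower in the RWDD4 clones. DDIT4 (chr10:72273924-72276036), also called REDD1, which restrains mTORC1 through the TSC complex and is also raised by hypoxia and glucocorticoids, was at 7.0, 7.27, 6.78 and 6.82 in RWDD4 clones 17, 24, 5 and 6, against 8.23, 8.22, 8.03 and 7.47 in control clones 2, 3, 4 and 5. All RWDD4 clones lay below all control clones, and control clone 5 was the nearest, 0.19 above RWDD4 clone 24. DDIT4 averaged 6.97 ± 0.23 in RWDD4 clones and 7.99 ± 0.36 in control clones (SD, n = 4 each), a difference of -1.02 (SE 0.18) or 2.03-fold lower. SESN2 (chr1:28259518-28282491), a leucine sensor that holds back mTORC1 through GATOR2 and is also a p53 target in cells that have p53, was at 6.92, 6.83, 6.78 and 6.80 in RWDD4 clones 17, 24, 5 and 6, against 7.76, 7.84, 7.42 and 7.10 in control clones 2, 3, 4 and 5. The groups did not overlap, and again control clone 5 lay nearest the RWDD4 clones, at a gap of 0.18. SESN2 averaged 6.83 ± 0.06 in RWDD4 clones and 7.53 ± 0.34 in control clones, a difference of -0.70 (SE 0.15) or 1.62-fold lower. Among all genes, 0.417% had a difference at or below that of DDIT4 and 1.97% at or below that of SESN2, while ASNS and PSAT1 stood at percentiles 83.2 and 89.3. Groups did not overlap for 4 of the 5 genes, as did 44.8% of all genes (23.7% higher and 21.1% lower), and the choice of the 5 used this difference.

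**Figure D1:**
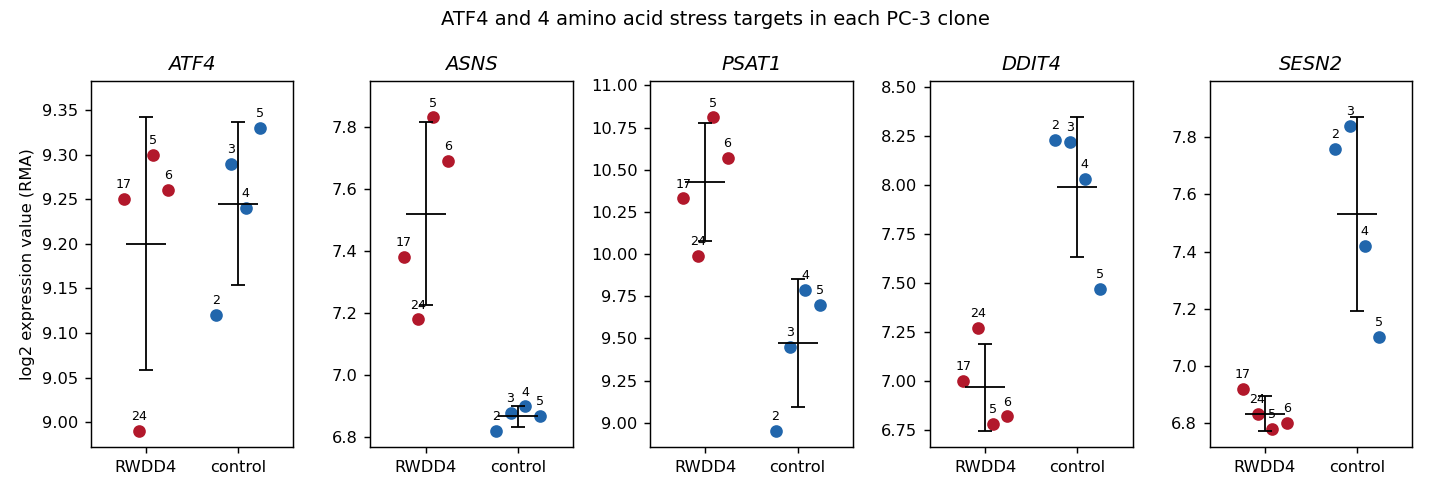
Log2 expression value of ATF4, ASNS, PSAT1, DDIT4 and SESN2 in each clone, RWDD4 clones left (red) and control clones right (blue), with the clone number at each point and the group mean and SD in black (n = 4 each). ATF4 overlaps between the groups, ASNS and PSAT1 lie above the control clones in all 4 RWDD4 clones, and DDIT4 and SESN2 lie below them.

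Within the RWDD4 group ATF4, ASNS and PSAT1 each were lowest in clone 24, followed by clones 17, 6 and 5. DDIT4 had exactly the reverse order, and SESN2 had neither, running 5, 6, 24 and 17 from low to high. Relative to the group mean, clone 24 lay at -0.43 for PSAT1, -0.34 for ASNS and -0.21 for ATF4 and at 0.30 for DDIT4, and clone 5 at 0.38, 0.31, 0.10 and -0.19 for the same genes. This order was seen after the values were known and is a description of 4 clones. Over all genes, 4.98% had the order of PSAT1 in the RWDD4 clones and 4.51% its reverse. Of 85 other pathway genes, 7 had the order of PSAT1 (EIF2AK3, PHGDH, GARS1, MARS1, NARS1, WARS1 and TSC1) and 1 the reverse, EIF4EBP1. SESN2 spread over 0.14 in the RWDD4 clones. In the control clones SESN2 spread over 0.75 and DDIT4 over 0.77. Control clone 5 was lowest for both, at -0.43 and -0.52 from the group mean, and control clone 2 was lowest for PSAT1, at -0.52, for ASNS and for ATF4. Without control clone 5 the differences of DDIT4 and SESN2 were -1.19 and -0.84, and without control clone 2 that of PSAT1 was 0.78.

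**Figure D2:**
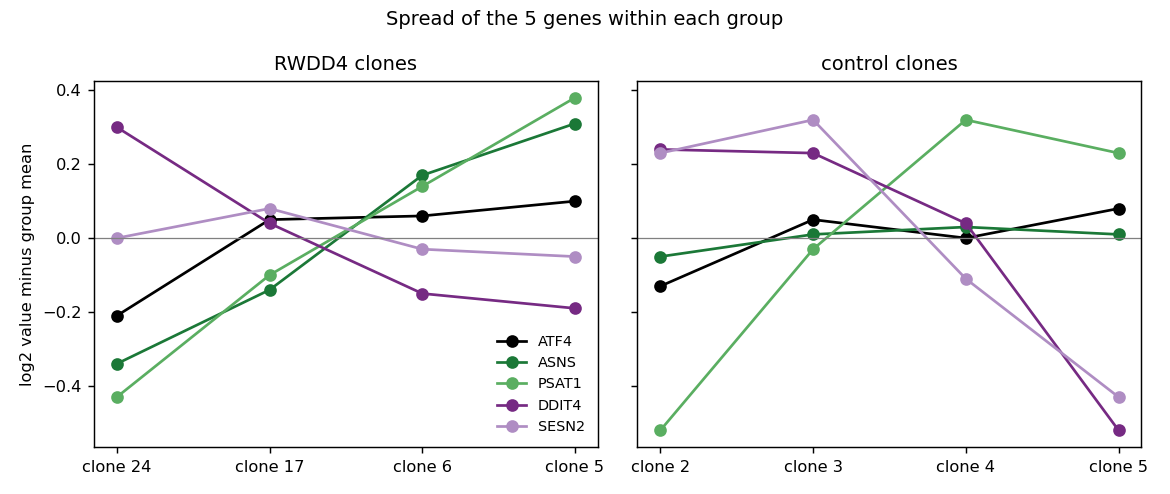
Log2 value minus the mean of its group for the 5 genes in the RWDD4 clones (left, ordered by PSAT1) and the control clones (right, by clone number). Lines only join the points of a gene. PSAT1, ASNS and ATF4 run opposite to DDIT4 in the RWDD4 clones, while in the control clones ASNS is nearly flat and DDIT4 and SESN2 are lowest in clone 5.

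Upstream of ATF4, all 4 eIF2 kinases rose in the RWDD4 clones. In the list of eIF2 regulators, 16 genes were listed and 6 measured, of which 5 rose (83.3%), none fell and 1 did not pass. The median difference was 0.77, against -0.08 over all genes, of which 25.1% were higher and 21.6% lower. These genes are long, from 26862 to 101477 bases. Their lengths fall in the sixth, eighth and ninth deciles of genomic span, described below. There 35.9%, 45% and 51.1% of protein-coding genes rose and 18.8%, 12.9% and 8.73% fell. EIF2AK4, which encodes GCN2, was at 9.21, 9.06, 9.33 and 9.07 in RWDD4 clones 17, 24, 5 and 6, against 7.35, 8.18, 7.71 and 8.14 in control clones 2, 3, 4 and 5, a rise of 1.32 (SE 0.17, adjusted p 0.000202). IMPACT, which competes with GCN2 for its activator GCN1, rose by 2.23 (SE 0.30), to 8.60 ± 0.23 in RWDD4 clones against 6.37 ± 0.73 in control clones (SD, n = 4 each, adjusted p 0.00023). The interferon-inducible kinase PKR (EIF2AK2), the heme-regulated kinase HRI (EIF2AK1) and PERK of the endoplasmic reticulum (EIF2AK3) rose by 0.82, 0.72 and 0.72, with adjusted p values of 0.0254, 0.00754 and 0.00682. GCN1 itself lay at 10.16 ± 0.08 in RWDD4 clones and 10.19 ± 0.13 in control clones and did not pass (adjusted p 0.861). With the span trend removed GCN1 passed as lower (-0.30, adjusted p 0.0126). EIF2AK2 did not pass without RWDD4 clone 24 (adjusted p 0.0693), after quantile normalization (0.0519), with the span trend removed (0.0748) or with all probe sets tested (0.0509). The subunits of eIF2 and eIF2B and the eIF2 phosphatase genes of this list were not analysed here.

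The enzymes on either side of PSAT1 in serine synthesis rose in the RWDD4 clones. Of 5 measured genes of serine, glycine and one-carbon metabolism (of 8 listed), 3 rose (60%) and none fell (median difference 0.40). Over all genes 25.1% were higher and 21.6% lower. PSPH, the phosphatase that follows PSAT1, was at 8.74, 8.74, 9.04 and 9.06 in RWDD4 clones 17, 24, 5 and 6, against 7.92, 8.08, 8.50 and 8.48 in control clones 2, 3, 4 and 5, a rise of 0.65 (SE 0.15, adjusted p 0.00506) with no overlap. PHGDH, the dehydrogenase that precedes it, averaged 9.15 ± 0.21 in RWDD4 clones and 8.75 ± 0.23 in control clones (SD, n = 4 each). It rose by 0.40 (SE 0.14, adjusted p 0.0347), and RWDD4 clone 24 overlapped the control clones. The mitochondrial folate enzyme MTHFD1L rose by 0.50 (SE 0.14, adjusted p 0.0126). SHMT2 and SHMT1, which make glycine from serine, lay at 0.07 and -0.05 and did not pass, and the sign of SHMT2 changed with the scaling. SHMT2 passed as higher with the span trend removed (0.34, adjusted p 0.0288), and SHMT1 as lower after quantile normalization (-0.34, 0.00765). PHGDH did not pass under any of the 3 other scalings (adjusted p 0.0947 to 0.247), with array weights (0.0592), with the span trend removed (0.118) or with all probe sets tested (0.0613), nor without RWDD4 clone 17, 5 or 6 or control clone 2, 3 or 5, one at a time (adjusted p 0.061 to 0.096 without a clone). After quantile normalization 1 gene of this list rose and 1 fell, and MTHFD1L did not pass there or with the span trend removed.

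Most of the other amino acid synthesis enzymes measured were lower in the RWDD4 clones, unlike ASNS and PSAT1. Of 7 measured (of 14 listed), 5 fell (71.4%), none rose and 2 did not pass (median -0.43). Over all genes 21.6% were lower and 25.1% higher. ASS1, which makes argininosuccinate for arginine synthesis, was at 6.36, 6.34, 6.29 and 6.33 in RWDD4 clones 17, 24, 5 and 6, against 8.10, 7.32, 7.28 and 6.73 in control clones 2, 3, 4 and 5. Its RWDD4 clones lay close together below all control clones, and it fell by 1.03 (SE 0.23, adjusted p 0.00392). ASL, the next enzyme toward arginine, fell by 0.44 (SE 0.10, adjusted p 0.00432). The proline enzymes PYCR1 and PYCR3 fell by 0.43 and 0.46, with adjusted p values of 0.00337 and 0.0395. CTH, which makes cysteine from cystathionine, lay at 0.61 (SE 0.23, adjusted p 0.0541) and CBS, the enzyme before it, at -0.09, and neither passed. CTH lay on the side of ASNS and PSAT1. It passed as higher with array weights (0.63, adjusted p 0.0416) and with genes below the median of all probe sets left out (0.61, 0.0454). PYCR3 did not pass without RWDD4 clone 17, 24 or 6 or control clone 2, 3 or 4. It also did not pass with array weights (adjusted p 0.052) or all probe sets tested (0.0704). With the span trend removed 2 of the 7 fell, and PYCR1 (-0.16, adjusted p 0.177) and PYCR3 (-0.21, adjusted p 0.271) did not pass. Without RWDD4 clone 6, 3 fell and 1 rose. The amino acid transporters of the list fixed for this pathway (11 genes) were not analysed here.

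Genes for cytosolic tRNA synthetases, which charge tRNAs and many of which are known ATF4 targets, mostly rose. Of 13 measured synthetases known as ATF4 targets (of 14 genes listed), 9 rose (69.2%), none fell and 4 did not pass (median 0.51). Over all genes 25.1% were higher and 21.6% lower. The number that rose was 7 under each of the 3 other scalings, and taking out the span trend also left 7. Quantile normalization had 1 synthetase of this list lower. Leaving out single clones gave 7 to 11 higher. EPRS1, the synthetase for glutamate and proline, was at 10.31, 9.90, 10.63 and 10.06 in RWDD4 clones 17, 24, 5 and 6, against 7.43, 8.47, 8.22 and 8.22 in control clones 2, 3, 4 and 5, a rise of 2.15 (SE 0.22, 4.43-fold, adjusted p 7.87e-05). NARS1, for asparagine, the product of ASNS, rose by 2.14 (SE 0.33, adjusted p 0.000489), to 10.93 ± 0.23 in RWDD4 clones against 8.80 ± 0.81 in control clones (SD, n = 4 each). LARS1, for leucine, and GARS1, for glycine, rose by 1.73 and 1.71. AARS1, for alanine, and MARS1, for methionine, lay at 0.04 and 0.25 and did not pass (adjusted p 0.812 and 0.12), and the sign of AARS1 changed with the scaling. In the 4 measured genes of the other cytosolic synthetases (of 7 listed), 2 rose, RARS1 by 1.55 and KARS1 by 0.56, while HARS1 at 0.07 and QARS1 at -0.08 did not pass and changed sign with the scaling or the span trend. Whether the 2 synthetase lists differ was not tested. Control clone 2 was lowest in EPRS1, NARS1, GARS1, LARS1 and RARS1, and without it EPRS1 rose by 1.93 and NARS1 by 1.73.

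The core TGATGNAA occurred in the promoter windows of 7 of the 10 synthetase genes of the first list that had a window, and in none of the 4 of the second list. The first list was made of known ATF4 targets, so this contrast may follow from how the lists were made. Excerpts of 30 bases are shown beside their differences because they share this core with ASNS. They run 5′ to 3′ on the strand of the gene, from GRCh38.p14, and capitals mark the core, which appears as its reverse complement where it lies on the other strand.
NARS1 (chr18:57621804-57621833, minus strand): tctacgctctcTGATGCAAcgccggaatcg
GARS1 (chr7:30594834-30594863, plus strand): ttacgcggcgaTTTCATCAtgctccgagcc
IARS1 (chr9:92293692-92293721, minus strand): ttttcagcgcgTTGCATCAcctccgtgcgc
TARS1 (chr5:33440956-33440985, plus strand): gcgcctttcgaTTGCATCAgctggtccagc
CARS1 (chr11:3057407-3057436, minus strand): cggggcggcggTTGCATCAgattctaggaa
MARS1 (chr12:57488053-57488082, plus strand): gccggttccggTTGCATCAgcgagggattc
AARS1 (chr16:70289675-70289704, minus strand): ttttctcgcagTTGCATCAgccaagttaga
Of these 7 genes, NARS1, GARS1, IARS1, TARS1 and CARS1 rose, by 2.14, 1.71, 1.67, 1.56 and 0.42, and MARS1 and AARS1 did not pass. CARS1 did not pass after quantile normalization (0.13, adjusted p 0.422), median centring (0.29, 0.0702) or cyclic loess (0.29, 0.0919), with the span trend removed (0.17, 0.312), with all probe sets tested (adjusted p 0.0575), or without RWDD4 clone 17 or 6 or control clone 2 or 4 (adjusted p 0.0696 to 0.088). EPRS1 rose by 2.15 with no such core in its window. Across the 85 other pathway genes, the core was in the windows of 6 of the 28 genes that rose and had a window (21.4%), 2 of 14 that fell (14.3%) and 4 of 25 that did not pass (16%). Among all 27305 genes with a window, 4.46% held it.

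Of 5 stress transcription regulators measured (of 8 listed), 3 fell (60%), none rose and 2 did not pass (median -0.29). Over all genes 21.6% were lower and 25.1% higher. TRIB3, a pseudokinase that feeds back on ATF4, was at 7.59, 7.58, 7.49 and 7.61 in RWDD4 clones 17, 24, 5 and 6, against 8.23, 8.46, 8.50 and 7.86 in control clones 2, 3, 4 and 5, and it fell by 0.69 (SE 0.13, adjusted p 0.00201). As with DDIT4 and SESN2, control clone 5 was the nearest to the RWDD4 clones. This was not particular to these genes. Control clone 5 was also nearest for PYCR1, ASS1 and ASL, while for ATF5, AKT1S1 and TSC2 it was control clone 4. Along the main direction of spread within the groups, described below, control clone 5 again came nearest (-0.37), closely followed by control clone 3 (-0.46). How often a given control clone was nearest over all genes was not tested. ATF3 and ATF5, bZIP factors induced through ATF4, fell by 0.54 and 0.27 (adjusted p 0.04 and 0.0254). DDIT3, which encodes CHOP, lay at -0.29 and did not pass (adjusted p 0.352), with control clone 3 at 6.44 and the other 7 clones between 5.09 and 5.57. JDP2 lay at -0.22 and did not pass. ATF3 did not pass without RWDD4 clone 24, 5 or 6 or control clone 3 or 4, after cyclic loess (adjusted p 0.0521) or with all probe sets tested (0.0722). ATF5 did not pass without RWDD4 clone 5 or 6 or control clone 5, and with the span trend removed ATF5 lay at 0.0023. Without RWDD4 clone 5, and without RWDD4 clone 6, 1 regulator fell in place of 3.

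Of 10 further targets in stress and secretion (of 14 listed), 2 rose (20%), 2 fell (20%) and 6 did not pass (median -0.17), shares near the 25.1% higher and 21.6% lower over all genes. The secreted stress cytokine GDF15 was at 8.14, 8.97, 8.61 and 8.24 in RWDD4 clones 17, 24, 5 and 6, against 10.61, 10.80, 11.18 and 9.80 in control clones 2, 3, 4 and 5. It fell by 2.11 (SE 0.27, adjusted p 0.000193), again with control clone 5 the nearest. The autophagy receptor SQSTM1 fell by 0.30 (SE 0.11, adjusted p 0.0383). PMAIP1, which encodes the pro-apoptotic NOXA, rose by 0.83 (SE 0.17, adjusted p 0.00268) and the lipoprotein receptor VLDLR by 0.51 (SE 0.12, adjusted p 0.00636). STC2 and VEGFA, secreted factors, lay at -0.20 and -0.26 and did not pass. VEGFA passed as lower after quantile normalization (-0.55, adjusted p 0.000645), median centring (-0.38, 0.00736) and cyclic loess (-0.38, 0.00939) and with array weights (-0.31, 0.0202). STC2 passed as lower after quantile normalization (-0.47, adjusted p 0.0359). The number that fell was 1 without RWDD4 clone 5 or 6 or control clone 3 or 4 or with all probe sets tested, 4 without control clone 2, after median centring or with array weights, and 5 after quantile normalization.

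SESN1 and SESN3, the relatives of SESN2, rose with the deposited values. SESN3 was at 4.97, 5.23, 5.39 and 5.74 in RWDD4 clones 17, 24, 5 and 6, against 4.19, 4.72, 4.80 and 4.74 in control clones 2, 3, 4 and 5, a rise of 0.72 (SE 0.18, adjusted p 0.00742). SESN1 averaged 5.13 ± 0.10 in RWDD4 clones and 4.65 ± 0.29 in control clones (SD, n = 4 each) and rose by 0.47 (SE 0.14, adjusted p 0.0161), but SESN1 was at 0.17 and did not pass with the span trend removed (adjusted p 0.333). With the control mean set to 0, SESN3 minus SESN2 was 0.97, 1.32, 1.53 and 1.86 in RWDD4 clones 17, 24, 5 and 6, against -0.66, -0.21, 0.30 and 0.56 in control clones 2, 3, 4 and 5. This difference within an array does not change when all its log2 values are shifted alike. It includes SESN2, which was chosen by its own difference between the groups, so it is a description and was not tested. DDIT4L, the relative of DDIT4, lay at -0.15 (SE 0.09) and did not pass (adjusted p 0.206). It passed as lower after median centring (-0.27, adjusted p 0.0307). No background level was given, and the values of SESN1, SESN3 and DDIT4L lay near the median of all probe sets (4.92).

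Of 21 measured genes of mTORC1 and its inputs (of 26 listed), 9 rose (42.9%), 5 fell (23.8%) and 7 did not pass (median 0.25). Over all genes 25.1% were higher and 21.6% lower, so the share that fell was near the background. SEH1L, a subunit of GATOR2 and of the nuclear pore, rose by 1.54 (SE 0.31, adjusted p 0.00229), and the Rag GTPase gene RRAGB, whose product brings mTORC1 to the lysosome, by 0.83 (SE 0.14, adjusted p 0.000753). AKT1S1, which encodes the inhibitor PRAS40, fell by 0.80 (SE 0.17), to 9.38 ± 0.24 in RWDD4 clones against 10.17 ± 0.31 in control clones (SD, n = 4 each, adjusted p 0.00306). TSC1 and TSC2, partners in the complex through which DDIT4 acts, differed in direction: TSC1 rose by 0.71 (SE 0.14) and TSC2 fell by 0.34 (SE 0.09). EIF4EBP1, a translation repressor that mTORC1 inactivates, and NPRL3 of GATOR1 lay at -0.09 and -0.13 and did not pass. NPRL3 passed as lower after quantile normalization (-0.31, adjusted p 0.0201) and with the span trend removed (-0.37, 0.0134).

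**Figure D3:**
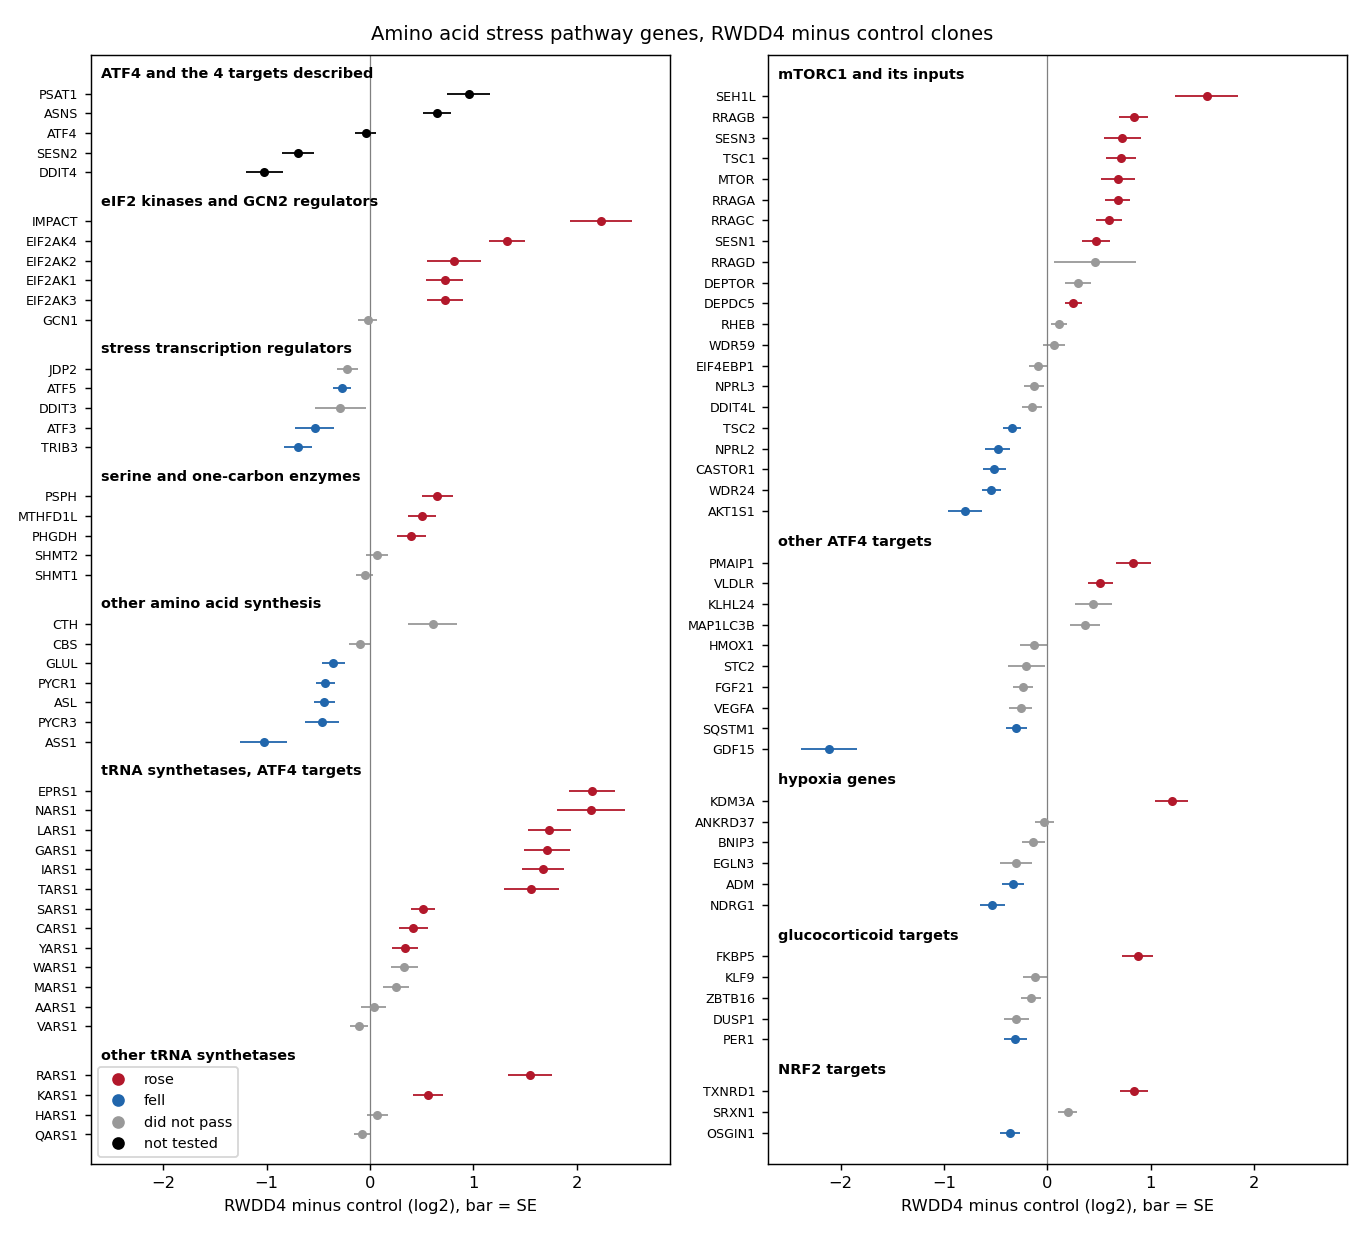
Difference between RWDD4 and control clones (log2, RWDD4 minus control, bars are the SE of the fit) for ATF4 and the 4 targets described (black, not tested) and for 85 other pathway genes by list. Red genes rose, blue genes fell and grey genes did not pass at an adjusted p under 0.05. Synthetases and eIF2 kinases lie mostly to the right, and stress regulators and the other amino acid synthesis enzymes to the left.

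Over the 85 other pathway genes 33 rose (38.8%), 19 fell (22.4%) and 33 did not pass, with a median of 0.07, beside 25.1% higher and 21.6% lower over all genes. Leaving out single clones gave 30 to 36 higher and 13 to 19 lower.

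The 5 genes differ in genomic span, the length of the gene from start to end, with which differences varied over all genes. The shares over all genes set beside the pathway lists were not matched for span. In the decile of shortest protein-coding genes, which holds ATF4 (2128 bases) and DDIT4 (2113 bases), 37.3% of genes fell, 3.86% rose and the median difference was -0.23. DDIT4 at -1.02 lay below that median and ATF4 at -0.04 above it. SESN2 (22974 bases) lay in the fifth decile, where the median was -0.07. PSAT1 (32969 bases) lay in the sixth, with a median of 0.01, and ASNS (76765 bases) in the eighth, with a median of 0.23, where 45% of genes rose. The full RefSeq span of ASNS reaches past both starts whose promoter windows were searched. From either start ASNS would be shorter, and its decile by such a length was not analysed. Removal of the span trend also used the full span. With each array's trend over span removed, the differences were 0.82 for PSAT1, 0.36 for ASNS, -0.74 for DDIT4 and -0.71 for SESN2.

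**Figure D4:**
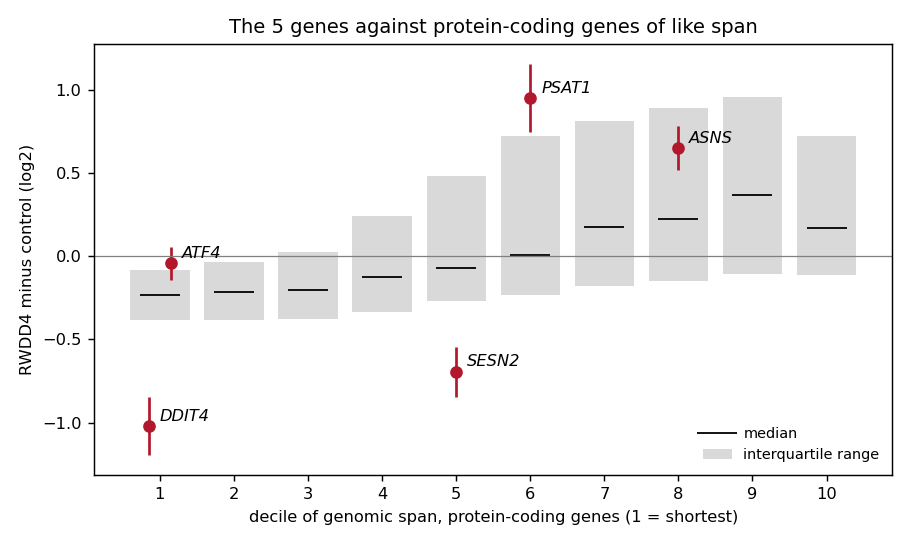
Difference between RWDD4 and control clones (log2) of the 5 genes (red, bars are SE) against the median (black line) and interquartile range (grey) of protein-coding genes in each decile of genomic span. PSAT1 lies above and DDIT4 and SESN2 lie below that range for genes of like span, and ATF4 lies just above it. ASNS lies within it when placed by its full RefSeq span, which is longer than that from the starts used for its promoter windows.

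Other scalings kept the sign of the 4 targets and moved their size. The differences after quantile normalization were 0.84 for PSAT1, 0.36 for ASNS, -1.26 for DDIT4 and -0.94 for SESN2. A further fit took as covariate where each array lay along the main direction of spread within the groups. This position lay between 0.60 and 1.09 in the RWDD4 clones and between -1.77 and -0.37 in the control clones, so the axis and the group are largely confounded. In that fit PSAT1 was at -0.03 (SE 0.31), ASNS at 0.36 (SE 0.28), DDIT4 at -0.40 (SE 0.33) and SESN2 at -0.29 (SE 0.31), none well clear of its error, and RWDD4 was at 1.88 (SE 0.43, adjusted p 0.159). None of the 85 other pathway genes passed there by limma, and 6 had an unadjusted p under 0.05. Of the genes named above as changed, EIF2AK1, EIF2AK2, EIF2AK3, PYCR3, ASS1, CARS1, KARS1, SESN3, SEH1L and TSC1 lay on the other side of 0 in that fit.

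**Figure D5:**
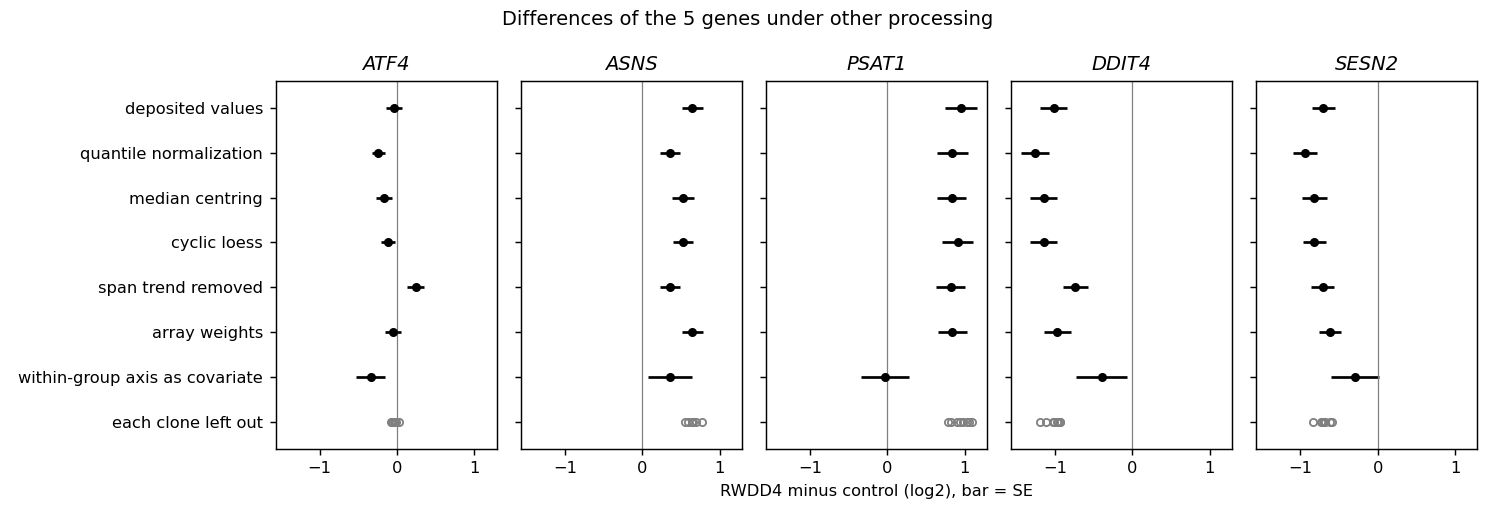
Difference between RWDD4 and control clones (log2) of the 5 genes with the deposited values and under 6 alternatives (bars are SE), and with each of the 8 clones left out (open grey points). ASNS, PSAT1, DDIT4 and SESN2 keep their side of 0 except for PSAT1 with the axis covariate, and ATF4 lies on either side of 0.

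The genes most like each of the 5 across the 8 clones were found by the root mean square distance between centred log2 profiles, over 9844 genes at or above the median of all probe sets. For PSAT1 they were MTO1 at a distance of 0.074, MZT1 at 0.122 and ZNF443 at 0.128. For ASNS they were PRKD1 at 0.067, ADAM22 at 0.078 and CEPT1 at 0.085. For DDIT4 they were TRADD at 0.112, SHFL at 0.122 and ZNF503-AS2 at 0.133. For SESN2 they were PICK1 at 0.093, OSBPL7 at 0.093 and PLK3 at 0.095, and for ATF4, whose profile was nearly flat, IMPDH2 at 0.052, CMBL at 0.055 and APOA2 at 0.056. No gene of the pathway lists was among these 15, which is likely by chance alone for lists of 85 genes. The distance was taken over both groups, so it includes the difference by which the 5 genes were chosen.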

How the data were processed

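RNA of 4 RWDD4 and 4 control clones was measured on 8 Affymetrix arrays. The authors deposited log2 values per probe set, made with RMA and Partek per the submitters' processing notes. The array's annotation build is not given in the sources used here. Of 53617 probe sets, 16098 carried 1 gene symbol in the platform table and the 37519 others were not used. They gave 14884 genes, and for 779 genes with several probe sets the brightest by mean was kept. Values were used as deposited, without further scaling. The groups were compared with limma 3.58.1 (lmFit and eBayes, R 4.3.3), with Benjamini-Hochberg adjustment over all genes and a threshold of 0.05. RWDD4 was also tested by an exact permutation over 70 relabellings. The fit was tested on simulated data. The number of arrays limits the precision, and p-values weigh a difference against the spread between clones within the groups. No pair of arrays held identical values.

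The members and lists were chosen with earlier results of these data known. From each list up to 4 genes with the largest absolute difference among those that passed were named, and up to 2 of the highest level among those that did not. EIF2AK3, IARS1, TARS1, CARS1, WARS1, SESN1, DDIT4L, TSC1 and TSC2 were named after their values were seen. Genomic spans are those of RefSeq genes in GRCh38.p14, and lowess (span 0.3) removed each array's trend over them. Alternatives were 3 other scalings, other variance models, filters and probe set rules, the span trend, the axis covariate and leaving out each clone.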

Additional observations from a re-analysis of the deposited data

Results flagged for a closer look

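In 122 groups of 4 clones (61 genes), 14 held a clone whose gap to its nearest neighbour took up more of the group's range than Dixon's critical value for 4 samples. Chance gives about 1 in 20 groups. ATF4 was at 8.99 in RWDD4 clone 24, with the other RWDD4 clones between 9.25 and 9.30. RWDD4 was at 9.87 in RWDD4 clone 6, with the others between 10.42 and 10.46. Among RWDD4 clones, DDIT3 at 5.12 and QARS1 at 10.89 stood apart in clone 17, MARS1 at 9.63 in clone 24, ANKRD37 at 5.97 in clone 6 and KDM3A at 7.50 in clone 5. Control clone 2 stood apart for 6 genes, lowest for GCN1 at 9.99, SHMT1 at 7.36, GARS1 at 7.06, NARS1 at 7.59 and SESN3 at 4.19 and highest for PER1 at 7.79. RRAGB was highest, at 5.40, in control clone 3.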

How the results depend on the processing

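No paired analysis was made, because the labels pair no RWDD4 clone with a control clone. The groups share 1 clone number, which is not said to mark a pair. DDIT4, SESN2 and ASNS kept their sign under all 18 alternatives, PSAT1 under all but the axis covariate, and ATF4 had no fixed sign. Leaving out single clones gave -0.08 to 0.03 for ATF4, 0.55 to 0.77 for ASNS, 0.78 to 1.1 for PSAT1, -1.19 to -0.94 for DDIT4, -0.84 to -0.59 for SESN2 and 2.7 to 3.15 for RWDD4, with 5630 to 6768 genes and 43 to 52 pathway genes called. It turned the sign of AARS1 (-0.03 to 0.12), ANKRD37 (-0.06 to 0.04), GCN1 (-0.09 to 0.01) and DDIT3 (-0.45 to 0.00098), none of which passed. Quantile normalization gave -0.24 for ATF4, 0.36 for ASNS and -0.94 for SESN2, and turned SHMT2 (-0.14), AARS1 (-0.04) and HARS1 (-0.21). Median centring gave -0.17 for ATF4 and turned SHMT2 (-0.06), AARS1 (-0.09) and HARS1 (-0.06), and cyclic loess turned SHMT2 (-0.03) and HARS1 (-0.05). Of the calls over all genes, 53.8% were higher (3741 higher, 3214 lower), against 42.7% after quantile normalization (3229 and 4332) and 36.5% after median centring (3307 and 5765), which moved the median of all genes to -0.21 from -0.08. With the span trend removed ATF4 was 0.24 and ASNS 0.36, and ATF5 (0.0023), AARS1 (-0.13), QARS1 (0.13) and ANKRD37 (0.25) turned. With the axis covariate ATF4 was -0.34, ASNS 0.36, PSAT1 -0.03, DDIT4 -0.40, SESN2 -0.29 and RWDD4 1.88 (adjusted p 0.159 by limma). In that fit 1 gene was called (0 higher, 1 lower, LOC285889, named after its value was seen) and 0 pathway genes (0 higher, 0 lower), with 1910 and 6 at an unadjusted p under 0.05. It turned EIF2AK1 (-0.20), EIF2AK2 (-0.28), SHMT2 (-0.07), PYCR3 (0.23), ASS1 (0.18), AARS1 (-0.31), MARS1 (-0.13), KARS1 (-0.09), SESN3 (-0.12), EIF4EBP1 (0.14), SEH1L (-0.25) and ANKRD37 (0.04). Testing all probe sets called 14153 (7099 higher, 7054 lower). The causes of these changes were not tested. No signal over background was given, so the precision of dim genes could not be judged.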

Other observations

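DDIT4 also belongs to hypoxia, glucocorticoid and oxidative stress programmes, and other genes of these are described here. Their part in the difference of DDIT4 was not tested. The lists are short, and over all genes 25.1% were higher and 21.6% lower. Of 6 hypoxia genes measured, 1 rose (16.7%), 2 fell (33.3%) and 3 did not pass (median difference -0.22). KDM3A, a histone demethylase, averaged 7.26 ± 0.16 in RWDD4 clones and 6.06 ± 0.33 in control clones (SD, n = 4 each) and rose by 1.20 (adjusted p 0.000217 by limma). NDRG1 fell by 0.53 and the peptide hormone gene ADM by 0.33 (adjusted p 0.00508 and 0.0245), while BNIP3 at -0.13 and ANKRD37 at -0.03 did not pass. With the span trend removed ANKRD37 changed sign and passed as higher (0.25, adjusted p 0.0431). ADM was at -0.05 and did not pass with that trend removed (adjusted p 0.738), where 2 hypoxia genes rose and 1 fell. Of the hypoxia genes 1 fell in place of 2 without RWDD4 clone 5 or 6 or control clone 3 or 4. Of 5 glucocorticoid receptor targets, 1 rose (20%) and 1 fell (20%). The chaperone gene FKBP5 rose by 0.87 and the clock gene PER1 fell by 0.31 (adjusted p 0.00103 and 0.0362), and DUSP1 at -0.30 and KLF9 at -0.12 did not pass. DUSP1 passed as lower after quantile normalization (-0.56, adjusted p 0.00371), median centring (-0.42, 0.013) and cyclic loess (-0.41, 0.0152). PER1 did not pass with the span trend removed (adjusted p 0.274), with all probe sets tested (0.0595), or without RWDD4 clone 17, 24 or 5 or control clone 2 or 4. Of 3 NRF2 targets, 1 rose (33.3%) and 1 fell (33.3%). Thioredoxin reductase TXNRD1 rose by 0.84, OSGIN1 fell by 0.36 and SRXN1, at 0.19, did not pass. With the span trend removed 2 of the 3 rose, SRXN1 among them by 0.44 (adjusted p 0.00409), and OSGIN1, at -0.22, did not pass (adjusted p 0.0841).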
